A study of Mus musculus with 12 samples.

Results

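Long non-coding RNA (lncRNA) promoters were examined in reduced representation bisulfite sequencing (RRBS) data from mouse brain. RRBS cuts DNA at CCGG, enriches CpG-rich fragments and reads the share of methylated cytosines in them. Tissue was hippocampus and cortex mixed, from 12 mice labelled 11 months old, although the study's methods allow somewhat older animals. In the Wt (wild type) group were 3 females and 1 animal labelled male. The Tg group held 4 females and 4 males of the Tg2576 line, whose transgene expresses human APP with the Swedish double mutation from a prion promoter. A site is 1 cytosine of a CpG on 1 strand, and its level is the percentage of its reads that were methylated. An lncRNA promoter site was an autosomal site with at least 10 reads in all 12 libraries that lay within 1000 bp of a transcript start of a lincRNA or antisense gene and over 1000 bp from every protein-coding start (GENCODE vM21 basic, mm10). In all, 18792 of the 970775 autosomal sites qualified (1.94%), of 980547 sites on the autosomes and X. They belonged to 1011 genes (625 lincRNA and 386 antisense) of the 8122 autosomal genes of these types. At least 3 sites, which is called a promoter here, were found for 741 genes, and 1 or 2 for 270. The sites of a gene can lie near different transcript starts. Reads of a promoter are summed over its sites, so a read that covers several is counted at each.

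An lncRNA is transcribed like a messenger RNA but codes for no protein. A lincRNA gene usually lies between protein-coding genes, and an antisense gene is read from the strand opposite to one. Some genes labelled lincRNA start inside a protein-coding gene, such as Gm17315 in Cdc42ep3. CpG-dense promoters are usually free of methylation in every tissue, CpG-poor promoters are often methylated, and imprinted lncRNA promoters carry methylation on the chromosome of 1 parent. H19, Airn, Kcnq1ot1, Meg3 and Nespas are imprinted lncRNAs, and some of them silence neighbouring genes on the same chromosome.

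Total coverage per library ran from 33619981 to 131446104, and the median coverage of lncRNA promoter sites per library from 22 to 68 reads. Because RRBS reads DNA, the labelled tissue could not be checked against marker transcripts. The library labelled Wt male had a mean X level of 19.9%, near the 20.7% to 23.0% of the libraries labelled female and far from the 5.50% to 5.67% of Tg males, so results that change without it are given both ways. The 3 lincRNA genes Gm26917, Gm42418 and AY036118 lie at 1 copy of the ribosomal RNA repeat beside the rRNA gene CT010467.1 (chr17:39846353-39848827). They hold 869 of the 18792 sites (4.62%) with a median coverage of 2692 reads, whereas the coverage of other sites reached 194, and results that rest on them are given without them.

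Sequences of the promoters on which the results turn are shown 5′ to 3′ on the plus strand of the reference (GRCm38.p6, the coordinates of mm10), with measured CpGs in capitals. The first 4 are stretches at imprinted genes and show how few CpGs stand behind their intermediate levels. H19 is at chr7:142578187-142578248, with sites at -100 to -49 bp from the start. Airn is at chr17:12742231-12742390, in an intron of Igf2r and 838 to 987 bp downstream of the Airn start. Kcnq1ot1 is at chr7:143295566-143295616, in an intron of Kcnq1, and Meg3 is at chr12:109540586-109540650, upstream of its start.
H19: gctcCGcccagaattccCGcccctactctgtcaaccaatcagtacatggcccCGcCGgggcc
Airn: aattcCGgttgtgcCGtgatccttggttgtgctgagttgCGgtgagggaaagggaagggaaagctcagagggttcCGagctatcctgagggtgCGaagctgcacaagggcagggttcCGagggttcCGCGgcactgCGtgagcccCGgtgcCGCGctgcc
Kcnq1ot1: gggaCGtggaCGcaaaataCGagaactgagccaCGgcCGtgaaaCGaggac
Meg3: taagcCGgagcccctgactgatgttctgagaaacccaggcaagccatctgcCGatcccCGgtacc
Malat1 (chr19:5803135-5803400, with sites at -723 to -468 bp from its start) and Gm16280 (chr10:86908850-86908988, in an intron of Stab2) show a nearly unmethylated and a highly methylated promoter.
Malat1: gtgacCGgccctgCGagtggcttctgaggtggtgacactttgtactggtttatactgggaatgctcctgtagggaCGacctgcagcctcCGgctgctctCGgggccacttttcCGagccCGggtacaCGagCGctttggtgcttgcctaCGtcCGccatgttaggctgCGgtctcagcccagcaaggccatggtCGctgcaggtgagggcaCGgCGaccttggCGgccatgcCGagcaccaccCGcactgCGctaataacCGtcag
Gm16280: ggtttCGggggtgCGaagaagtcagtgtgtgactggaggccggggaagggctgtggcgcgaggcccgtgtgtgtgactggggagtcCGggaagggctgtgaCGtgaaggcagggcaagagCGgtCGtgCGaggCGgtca
Gm26796 (chr12:80757688-80757986, in coding sequence of Ccdc177) and Gm29371 (chr1:87080183-87080246, repeat-masked sequence) are the most methylated of the CpG-dense promoters.
Gm26796: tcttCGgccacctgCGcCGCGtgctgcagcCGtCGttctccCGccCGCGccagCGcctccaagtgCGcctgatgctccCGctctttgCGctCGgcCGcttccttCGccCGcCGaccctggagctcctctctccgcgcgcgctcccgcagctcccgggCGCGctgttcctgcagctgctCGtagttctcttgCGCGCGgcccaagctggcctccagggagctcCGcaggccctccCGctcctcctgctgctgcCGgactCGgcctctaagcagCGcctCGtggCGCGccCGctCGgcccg
Gm29371: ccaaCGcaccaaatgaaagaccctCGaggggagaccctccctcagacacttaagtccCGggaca
2810429I04Rik (chr13:3478240-3478401) is among the 10 promoters that differed most between animals where each library gave at least 50 reads, and has the most sites of these. Gm27200 (chr4:155343032-155343147, in an intron of Prkcz) had the largest difference between genotypes among the promoters named here.
2810429I04Rik: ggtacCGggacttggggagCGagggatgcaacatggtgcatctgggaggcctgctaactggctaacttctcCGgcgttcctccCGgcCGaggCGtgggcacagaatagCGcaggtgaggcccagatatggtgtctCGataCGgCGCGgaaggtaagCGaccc
Gm27200: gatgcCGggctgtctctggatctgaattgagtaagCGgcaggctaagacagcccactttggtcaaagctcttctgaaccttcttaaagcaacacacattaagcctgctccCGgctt

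To ask how methylated lncRNA promoters are in this tissue, their sites were compared with protein-coding promoter sites in the same animals. lncRNA promoter sites were methylated more in every animal. Their mean level was 6.37% ± 0.356 (SD, n = 12), against 1.36% ± 0.0553 (SD, n = 12) at 745837 sites within 1000 bp of a protein-coding start. Sites near both kinds of start, which are part of the coding promoter sites, had 1.20%, and sites over 1000 bp from both stood at 20.5%. The within-animal difference from coding promoters was 5.01 ± 0.312 points, ranged from 4.31 to 5.66, and was above 0 in 12 of 12 animals (two-sided exact sign-flip permutation test, p = 0.000488, the smallest it can give, adjusted p = 0.000537 over 11 differences). Without the ribosomal RNA repeat it was 4.55 points, and with a minimum of 20 reads, which left 7425 sites, it was 2.92 points, or 1.57 without the repeat as well.

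**Figure D1:**
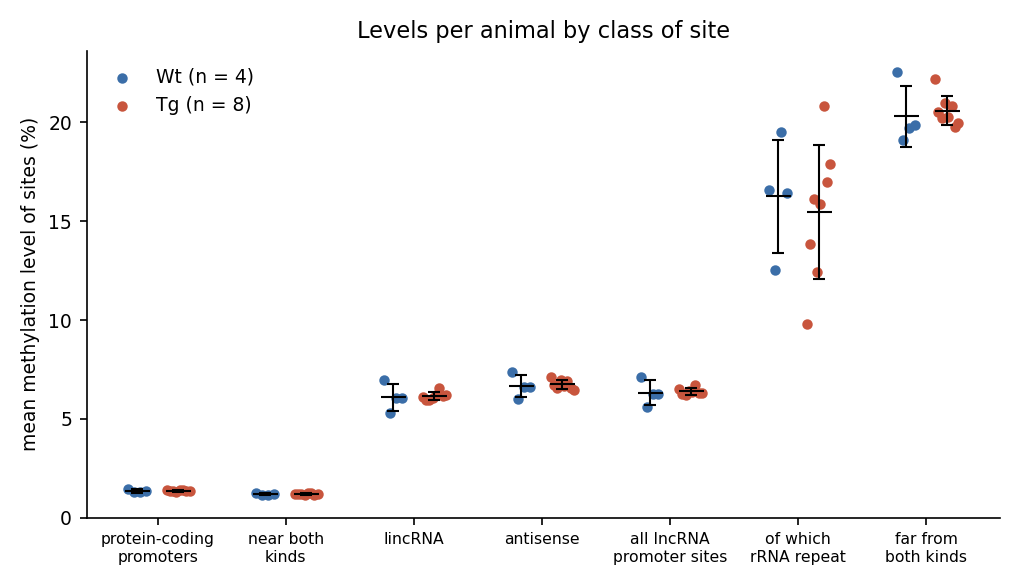
Mean methylation level (%) of sites in each class; each point is 1 animal, blue for Wt (n = 4) and red for Tg (n = 8), and bars are the mean ± SD. All 12 animals have lncRNA promoter sites between 5.60% and 7.13%, above coding promoters and below sites far from both kinds of start; the ribosomal RNA repeat spreads from 9.82% to 20.8%.

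The difference was present at every distance from the start and at every CpG density. Sites within 100 bp of an lncRNA start had a mean level of 5.34%, against 1.12% at coding starts, and sites over 500 bp away had 7.53% against 2.24%. Density was taken as observed over expected CpG in 500 bp either side of the start. Around CpG-poor starts (ratio under 0.48) lncRNA sites had 15.6% and coding sites 8.60%. Around starts of middle density the levels were 4.12% and 1.67%, and around CpG-dense starts (over 0.75) they were 4.04% and 0.962%. Each of these 7 differences was above 0 in 12 of 12 animals with an adjusted p = 0.000537 in the same exact permutation test. Without the ribosomal RNA repeat, the level around CpG-dense lncRNA starts was 2.76% and the difference from coding starts 1.80 points.

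Kind of gene and position in another gene made smaller differences. lincRNA sites had a mean level of 6.13% and antisense sites 6.72%, a difference of -0.587 ± 0.227 points that was below 0 in 12 of 12 animals (exact permutation test, adjusted p = 0.000537). The direction turned with the settings: with 500 bp either side of each start the difference was 0.912 points, or 0.341 without the ribosomal RNA repeat, and with at least 20 reads per site it was 1.42 points, or -0.761 without the repeat. Sites inside protein-coding gene bodies, 40.5% of the total, had 6.38% and those outside 6.36% (exact permutation test, p = 0.815). Without the ribosomal RNA repeat, which lies outside, the inside sites were 0.810 points higher in 12 of 12 animals (exact permutation test, adjusted p = 0.000488).

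Taken promoter by promoter, most lncRNA promoters were unmethylated and a minority was methylated through most reads. Of the 741 promoters, 67.6% had a mean level under 10%, 177 lay between 10% and 50%, and 63 (8.50%) were above 50%. Of 12365 autosomal coding promoters, 95.7% were under 10% and 1.02% above 50%. The median level was 3.58% for lncRNA and 0.880% for coding promoters. lincRNA promoters were above 50% in 31 of 450 cases and antisense promoters in 32 of 291. Highly methylated promoters rested on few sites and reads: those above 50% had a median of 4 sites and 29.0 reads per site, against 20 sites and 49.5 reads for those under 10%. With at least 5 sites, 20 were above 50%, and with at least 20 reads per site 3 were.

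**Figure D2:**
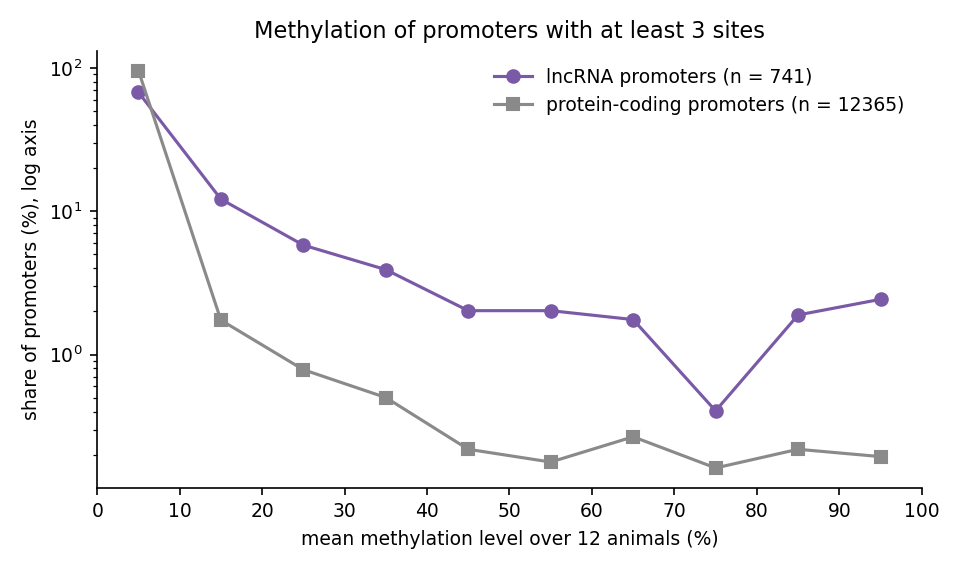
Share of promoters (%, log axis) in each 10-point bin of mean methylation level over 12 animals, for 741 lncRNA promoters (circles) and 12365 autosomal protein-coding promoters (squares). The lncRNA curve lies above the coding curve in every bin above 10%, and 2.43% of lncRNA promoters fall between 90% and 100%, against 0.194% of coding promoters.

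The 10 most methylated promoters had mean levels of 93.4% to 97.5% and SDs of 2.09 to 6.26 points over 12 animals. They were 5 lincRNA and 5 antisense genes, all with 3 to 8 sites. The highest were 1700018B24Rik at 97.5%, Gm16280 at 96.8% ± 2.73 (SD, n = 12), Gm44226 at 96.6% and Gm47020 at 96.1%. Across its 8 sites, Gm16280, shown above, varied from 94.3% to 99.0%. The 10 least methylated promoters with at least 10 sites had levels of 0.328% to 0.513%.

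Level fell with CpG density. The median observed over expected CpG was 0.598 in promoters under 10%, 0.351 in those from 10% to 50% and 0.344 in those above 50%, with 46, 23 and 20 CpGs in the 1001 bp around the start. Across the 741 promoters, which share libraries and differ in depth and base composition, Spearman's rho between level and density was -0.53 and Pearson's r was -0.39. Whether the start lay inside a protein-coding gene differed little between these classes (37.5%, 35.6% and 39.7%).

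**Figure D3:**
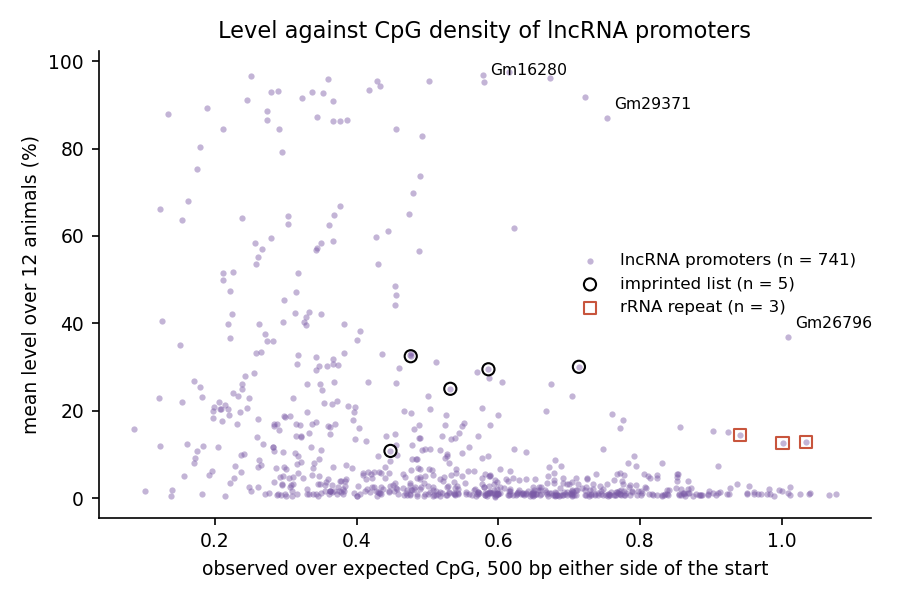
Mean level over 12 animals (%) against observed over expected CpG around the start for 741 lncRNA promoters (points); open circles mark the 5 imprinted genes and open squares the 3 genes of the ribosomal RNA repeat. Most CpG-dense promoters lie near 0%, and Gm26796 (36.9%) and Gm29371 (86.9%) stand above them.

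Of the 131 CpG-dense promoters (ratio over 0.75), 120 were under 10% and 11 were at or above it. These 11 were chosen after their values were seen and include the 3 genes of the ribosomal RNA repeat, at 12.6% to 14.5%. Gm29371 had 86.9% ± 7.72 (SD, n = 12) over 3 repeat-masked sites. Gm26796, antisense to Ccdc177 and with a density of 1.01, had 36.9% ± 3.56 (SD, n = 12) over 158 sites, all of them in coding sequence of Ccdc177. Its single sites ran from 2.66% to 70.1%, and those of the printed stretch from 19.9% to 60.0%. Gm44732, which starts inside the imprinted cell-cycle inhibitor gene Cdkn1c, had 15.2% ± 3.24 (SD, n = 12) over 61 sites. Gm13256, which starts inside the transcription factor gene Gata3, had 16.1% ± 2.98 (SD, n = 12) over 27 sites. Mecomos, Gm17315, Gm13111 and Gm39662 had 15.3% to 19.1% over 5 to 8 sites.

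The imprinted list of 16 lncRNA genes had 5 with a promoter here, and all 5 lay above the median of all lncRNA promoters. Their median level was 29.5%, against 3.58% over the 741. H19, a maternally expressed growth-restraining RNA, had levels of 44.9%, 26.5% and 19.3% in the Wt females, 34.5% in the library labelled Wt male and 23.2% to 43.8% (median 32.6%) in Tg mice. Over all animals that is 32.5% ± 8.45 (SD, n = 12), from 4 sites. Single sites had 14 to 92 reads per library, and their sums were 56 to 362. Airn, the paternally expressed RNA antisense to Igf2r, had 27.6%, 41.1%, 29.8% and 28.7% in the Wt mice in the same order and 17.1% to 47.1% (median 21.8%) in Tg mice. Its 14 sites, shown above, had means between 24.5% and 33.6%. The genotypes overlapped at both genes.

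Nespas, antisense to the Gnas cluster, had 50.3%, 38.4% and 26.0% in the Wt females, 32.8% in the library labelled Wt male and 14.3% to 43.4% (median 23.8%) in Tg mice. The read-weighted level of Tg was 10.5 points lower, a call in the binomial model described next but not in the overdispersion model (adjusted p = 0.865), and the ranges overlapped. Meg3, a maternally expressed RNA of brain and pituitary, had 18.9% to 25.5% in Wt and 8.41% to 37.8% in Tg mice. Its sites, which lie near different transcript starts, differed among themselves more than those of the other imprinted genes, from 2.02% to 36.1%. Those at chr12:109540591 to 109541806 had 27.6% to 36.1%, and those at chr12:109545988 to 109546191 had 2.02% to 32.6%. Its only site with at least 20 reads throughout is the one at 2.02%. Kcnq1ot1, the paternally expressed RNA that silences the Kcnq1 domain, was the lowest at 10.8% ± 10.8 (SD, n = 12). Its 6 sites lie within 40 bp and share reads, and its level was 0% in the library labelled Wt male and in several Tg mice, and 27.5% in Tg female 2. With 2000 bp either side of the start its level was 25.3%. At 72 reads over 6 sites in the shallowest library, such a level rests on few DNA fragments.

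Developmental lncRNA promoters had low levels. Of 35 genes on this list, 12 had a site and 11 a promoter, with a median of 2.28% and a range of 0.956% to 7.04%, against a median of 3.58% over the 741. Most are named after the homeobox or other transcription factor gene beside them. The highest was Otx2os1, beside Otx2 of forebrain patterning, with 6.61% ± 0.709 (SD, n = 4) for Wt and 7.25% ± 2.17 (SD, n = 8) for Tg mice, and its level over all animals was 15.5% where only sites with at least 20 reads were kept. Dlx1as, antisense to the interneuron factor Dlx1, had 4.26% ± 2.03 (SD, n = 4) and 6.53% ± 2.65 (SD, n = 8). Nkx2-2os had 4.12% ± 1.22 (SD, n = 8) in Tg mice, and in Wt mice 3.19%, 5.23% and 3.55% beside 10.7% in Wt female 2. Its sites ran from 0.231% downstream of the start to 38.1% far upstream, and its level was 1.87% with 500 bp and 17.4% with 2000 bp either side. Hoxb3os, of the Hoxb cluster, had 3.37% ± 0.371 (SD, n = 4) and 3.43% ± 0.838 (SD, n = 8). Foxo6os had 1 site only, at 15.3% ± 10.8 (SD, n = 12). Dlx4os, Emx2os, Vax2os, Pantr1, Hottip, Hoxaas3 and Sox6os lay between 0.956% and 2.75%.

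The brain and host gene list held broadly expressed and neuronal lncRNAs, and 8 of its 25 genes had a promoter here. Apart from Meg3, on both lists, all were between 0.498% and 1.90%. Malat1, an abundant nuclear-speckle RNA, had 0.649%, 0.543% and 1.32% in the Wt females, 3.05% in the library labelled Wt male and 0.254% to 1.53% (median 0.606%) in Tg mice. Miat, a neuronal nuclear RNA, had 0.745% ± 0.387 (SD, n = 4) for Wt and 1.58% ± 0.775 (SD, n = 8) for Tg mice. The small nucleolar RNA host genes Snhg6, Snhg12 and Snhg20 had 0.626%, 1.90% and 0.498%, 2900097C17Rik had 0.630% and Epb41l4aos 1.20%. No promoter of these 3 lists was called in the overdispersion model, and 1, Nespas, was called in the binomial model, at backgrounds of 0% and 0.849% over all promoters (0.267% on the autosomes for the binomial model).

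**Figure D4:**
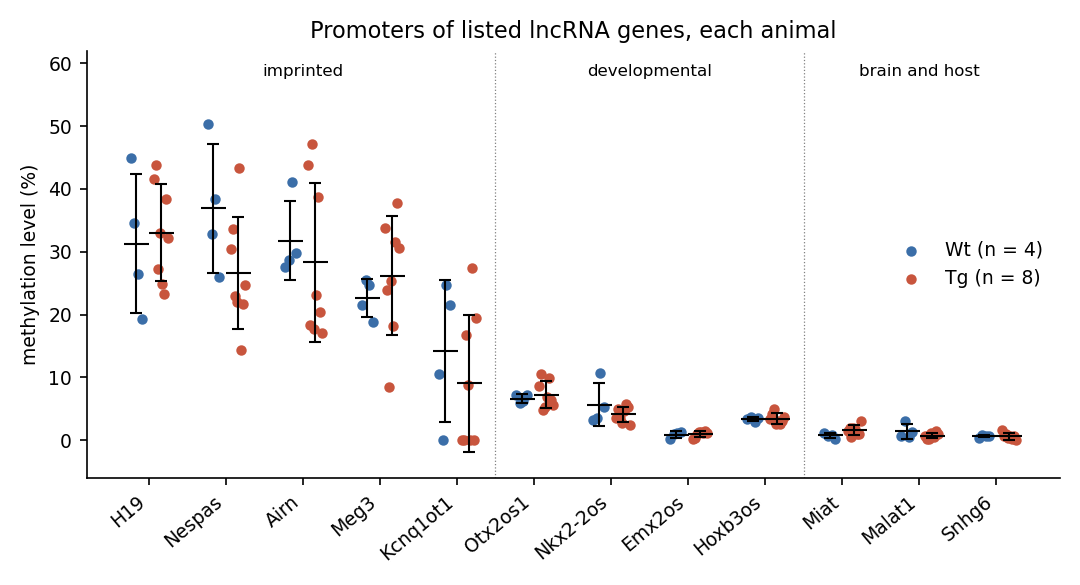
Methylation level (%) of 12 listed lncRNA promoters; each point is 1 animal, blue for Wt (n = 4) and red for Tg (n = 8), and bars are the mean ± SD. The imprinted genes lie between 0% and 50.3%, with wide spread within each genotype; the developmental and brain genes drawn stay under 11%.

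To ask whether genotype moved these promoters, Tg and Wt animals were compared at every site and every promoter of the whole table with sex as a covariate. At a site, the binomial model treats each read as an independent draw. At a promoter it does so for every count summed over sites, although 1 read can cover several sites. The overdispersion model scales the error by the spread seen between animals. A call needed an adjusted p under 0.1 and a read-weighted difference of at least 10 points. The mean level of lncRNA promoter sites was 6.32% ± 0.629 (SD, n = 4) for Wt and 6.39% ± 0.167 (SD, n = 8) for Tg mice. Single Wt animals had 7.13%, 6.27% and 6.29% in females and 5.60% in the library labelled Wt male, and Tg mice had 6.20% to 6.73%. All Tg values thus lay within the Wt range. Without the library labelled Wt male they did not, as Tg male 1 (6.257%) and Tg male 2 (6.195%) lay below every Wt female. The difference of 0.0704 points became -0.171 without the library labelled Wt male and 0.341 without Wt female 1.

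At single sites the lncRNA promoters were called about as often as all sites. The binomial model called 307 sites (1.63%) of 197 genes, where the background over all sites was 1.72% (1.49% on the autosomes). Of these, 174 were higher in Tg, at a background of 0.928% (0.93% on the autosomes), and 133 lower, at a background of 0.793% (0.557%). The overdispersion model called 0 sites, as over the whole table (background 0%), with a smallest adjusted p of 0.422, and 1825 sites (9.71%) had an unadjusted p under 0.05, against 10.9% of all sites. In the binomial model 27.9% had an unadjusted p under 0.05, at a background of 25.5%. limma on logit levels also called 0. Called sites were more methylated than the rest, with a median of 30.7% against 1.38%. Where the opposite strand of the CpG was also measured, it differed in the same direction for 61 of the called sites. That was 60.4% of the called sites measured on both strands (95% Wilson interval 50.6% to 69.4%, which treats sites as independent). Among 9537 other sites the share was 52.9%. These shares cannot be compared directly, because the other sites were less methylated and a site without a difference has no direction. Of all lncRNA promoter sites, 11.6% were unmethylated in every library. No conclusion is drawn from the gap between the shares. With at least 20 reads 38 of 7425 sites were called, and the 7 animals labelled female gave 499 of 18792. Backgrounds under these 2 settings were not computed.

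Summed over promoters, 14 of 741 (1.89%) were called in the binomial model, 10 higher and 4 lower in Tg. The background was 0.849% over all promoters, or 0.267% on the autosomes. By direction it was 0.149% higher and 0.7% lower over all, and 0.153% and 0.114% on the autosomes. Of the called promoters, 10 had under 5 sites and 7 had exactly 3. With at least 5 sites 4 of 568 were called, with at least 20 reads 0 of 399, and without Wt female 1 there were 28 of 741. Backgrounds under these settings were not computed. The overdispersion model called 0 of 741 (background 0%), with a smallest adjusted p of 0.502, and 37 (4.99%) had an unadjusted p under 0.05, against 6.15% of all promoters (6.13% on the autosomes). In the binomial model 46.6% of the lncRNA promoters had an unadjusted p under 0.05, at a background of 49.6%.

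The 14 called promoters had levels of 23.9% to 90.9%. Gm27200, antisense to the brain protein kinase gene Prkcz, had the largest difference. Wt females had 43.1%, 50.8% and 53.9%, the library labelled Wt male had 72.7%, and Tg mice had 18.5% to 43.8% (median 27.6%). The groups overlapped only through Tg female 4 at 43.8%. The read-weighted difference was -28.5 points (overdispersion model, adjusted p = 0.575), and it stayed between -32.4 and -23.6 points when each animal was left out. It rested on the 3 CpGs shown above and 32 to 154 reads per library, summed over these CpGs.

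Gm36972, a lincRNA gene, was higher in Tg by 15.9 points. Wt females had 46.4%, 33.0% and 49.5%, the library labelled Wt male had 21.7%, and Tg mice had 45.2% to 77.5% (median 61.6%). The groups overlapped, and its adjusted p in the overdispersion model was 0.711. 2310005A03Rik was higher by 16.4 points, yet Tg mice ranged from 18.0% to 81.5% around Wt values of 20.8% to 37.7%. Junos, named after the immediate early gene Jun, had 94.4% ± 5.64 (SD, n = 8) for Tg and 83.95% ± 13.97 (SD, n = 4) for Wt mice. Gm29371 was the only called promoter whose genotypes did not overlap, at 69.2% to 85.0% in Wt and 85.57% to 100% in Tg mice. The others, Gm45572, Platr31, Gm36840, Gm33301, Gm47153, Gm26601, Gm45169 and 3110015C05Rik, differed by sizes of 10.03 to 12.2 points.

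**Figure D5:**
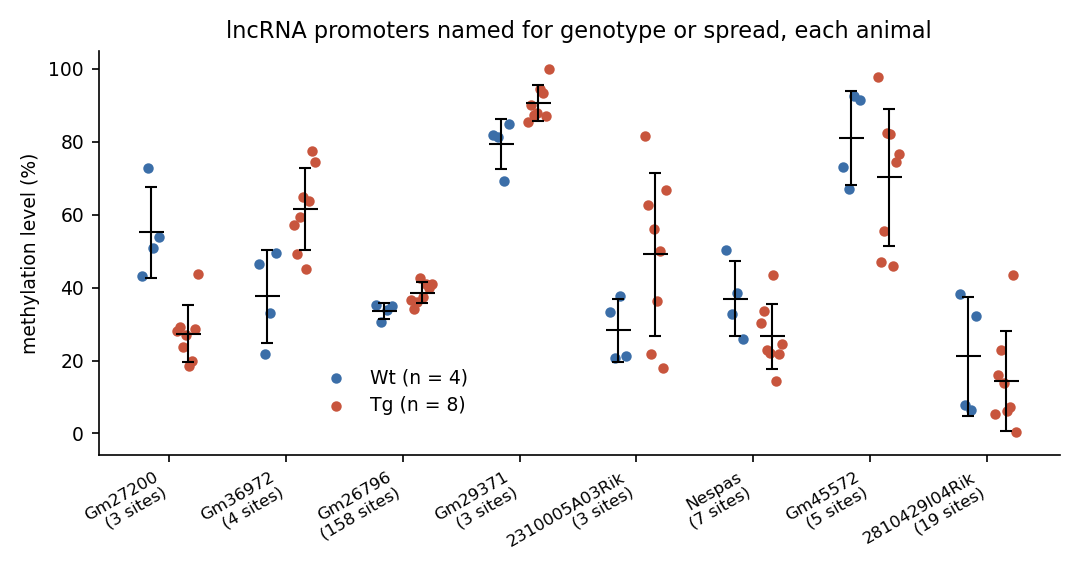
Methylation level (%) of 8 lncRNA promoters named for their genotype difference or their spread; each point is 1 animal, blue for Wt (n = 4) and red for Tg (n = 8), and bars are the mean ± SD. Tg animals lie below most Wt animals at Gm27200 and above most at Gm36972 and Gm26796. Tg animals spread widely at 2310005A03Rik, and both genotypes do so at Gm45572 and 2810429I04Rik.

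Among the 10 promoters with the smallest overdispersion-model p, 8 had differences under 5 points. Gm11837 came first, with 0.492% ± 0.234 (SD, n = 4) for Wt and 1.02% ± 0.337 (SD, n = 8) for Tg mice over 116 sites (adjusted p = 0.502 over all promoters). Gm26796, the CpG-dense promoter described above, had 35.2%, 33.9% and 34.9% in Wt females, 30.5% in the library labelled Wt male and 34.2% to 42.6% (median 38.7%) in Tg mice. Its difference of 4.59 points stayed between 3.66 and 5.15 when each animal was left out (adjusted p = 0.759). Gad1os, antisense to the GABA-synthesis gene Gad1, had 3.89% ± 0.954 (SD, n = 4) for Wt and 1.76% ± 1.05 (SD, n = 8) for Tg mice, a difference of -2.67 points that was 0.463 with 500 bp either side of each start. Gm29464, D730003I15Rik, Gm27239, AC158605.1 and Gm30025 differed by -2.05 to 0.446 points. AC158605.1 rested on the library labelled Wt male, without which its -0.520 points became 0.0401.

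Ranges of the genotypes did not overlap at 7 promoters (0.945%, background 0.343%) and at 21 sites (0.112%, background 0.0709%). Besides Gm29371 these promoters were Gm29464, Gm17110, Gm48435, Gm27239, D730003I15Rik and Gm30025, with levels of 0.552% to 1.82%. Conversion of unmethylated cytosines was not measured, so its part in levels this low, here and in the preceding paragraph, was not tested. At Gm29464 Wt mice had 2.52% to 4.43% and Tg mice 0.765% to 1.49%, a read-weighted difference of -2.01 points that was 0.0467 with at least 20 reads per site. At Gm30025 the order was the opposite, with 0.200% to 0.270% in Wt and 0.408% to 1.48% in Tg mice. Of the 21 sites, 4 were higher and 17 lower in Tg. No background by direction was computed for sites without overlap, so this split has no comparison.

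Single sites with a binomial call and no overlap are given by the 6 with the smallest overdispersion-model p, 1 per promoter, each with an adjusted p of 0.422 in that model. At the Gm27200 site chr4:155343067, the second CpG in capitals above, Wt mice had 63.2% to 100% and Tg mice 16.7% to 50%, from 10 to 58 reads per library. At Grip1os2, antisense to the synaptic scaffold gene Grip1, the site chr10:119761528 had 85.7% to 90.9% in Wt and 20% to 80% in Tg mice. Gm42488 (chr5:111944409) had 38.1% to 47.4% and 0% to 33.3%. 4930511J24Rik (chr12:109911222) had 17.6% to 37.5% and 0% to 16.9%, and AC132253.9 (chr19:9836615) had 21.1% to 36.4% and 0% to 15.6%. Gm14174 (chr2:156615274) was higher in Tg, with 5.48% to 10.5% in Wt and 13.5% to 33.3% in Tg mice. The opposite strand was not measured at any of the 6.

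Some promoters differed between animals far more than between genotypes. Among promoters with at least 50 reads in each library, the 10 with the largest spread had SDs of 13.8 to 19.04 points over 12 animals. They were picked for that spread, and were 9 lincRNA genes and 1 antisense gene, with mean levels of 16.7% to 73.8%. The median SD was 7.21 points for lncRNA promoters from 10% to 50% and 8.61 for those above 50%. Over all lncRNA promoters, most of them under 10%, it was 2.003. Gm15889 spread from 2.33% to 58.3%, Gm45572 from 46.0% to 97.7% and E330018M18Rik from 10.1% to 71.2%. The others were 2810429I04Rik, described next, AC115789.2, Gm48607, Gm49343, CT025659.1, Gm16118 and Gm12532. The genotypes overlapped at each of the 10, and their adjusted p-values in the overdispersion model were 0.919 to 0.9955.

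2810429I04Rik had the most sites of these 10. Its level was 38.2%, 6.31% and 32.1% in the Wt females, 7.82% in the library labelled Wt male and 0.380% to 43.5% (median 10.5%) in Tg mice. Its 19 sites had 502 to 1465 reads per library, summed over sites, and means of 7.10% to 38.7%. Over the 13 sites of the stretch shown above, levels ran from 0% to 44.4% between animals. Levels of the 3 genes of the ribosomal RNA repeat also spread, from 7.04% to 20.1%. Each library gave each gene at least 197318 reads, summed over sites. Their means over animals were 14.47%, 12.7% and 12.7% in Wt and 14.5%, 12.8% and 12.6% in Tg mice for Gm26917, Gm42418 and AY036118, and Tg female 1 was the lowest animal and Tg female 2 the highest over their sites.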

How the data were processed

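RRBS libraries came from 12 mouse brains. The deposited files hold a count of all, methylated and converted reads at each CpG cytosine, which the authors obtained by alignment to mm10 with Bismark and import into methylKit, in 1 file per animal with strands apart; versions are not given in the sources used here. A table of the authors' own comparison was not used. Sites covered by 10 or more reads in every library were assigned to the nearest GENCODE vM21 basic start. Levels are percentages of methylated reads, averaged over sites, or summed over the sites of a promoter. Genotype was tested by logistic regression with sex as covariate, with a likelihood-ratio test (binomial model) or with the Pearson dispersion, at least 1, in an F test (overdispersion model), and p-values were Benjamini-Hochberg adjusted over all 980547 sites or 13420 promoters. limma on logit levels was an alternative. Both models were also run on simulated counts of single sites, not of summed promoters, and the outcomes are not reported here. Within-animal differences were tested by two-sided exact sign-flip permutation over the 12 animals. Such a test measures repeatability over animals at the same sites, not over genes.

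Named promoters were all listed genes with a site, the 10 highest, the 10 with the largest SD at 50 or more reads per library, the 10 with the smallest overdispersion-model p, and up to 6 sites called in the binomial model without overlap between genotypes; the 10 lowest with at least 10 sites were given as a range. Promoters called in the binomial model, those without overlap and the CpG-dense methylated ones were named after their values were seen. Members and gene lists were chosen with earlier results of these data known. Animals are the replicates, and their numbers only name them. Intervals cover counting error only, since reads carried no molecular identifiers. Python 3.11.15, numpy 2.4.6, scipy 1.17.1, pandas 2.3.3, pysam 0.24.0, matplotlib 3.10.9, R 4.3.3 and limma 3.58.1 were used.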

Additional observations from a re-analysis of the deposited data

Results flagged for a closer look

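Of 118 groups of 4 or 8 animals examined, 12 held 1 animal far from the others by Dixon's criterion. Its nominal rate of about 1 in 20 does not apply here. Levels are bounded percentages, and many of the promoters were picked by level, spread or p-value. No excess over chance can be read from the count. In Wt mice, Wt female 2 stood apart at Epb41l4aos (3.20%, others 0.186% to 0.560%), Airn (41.1%, others 27.6% to 29.8%) and 1700018B24Rik (98.1%, others 100%). The library labelled Wt male stood apart at Gm44226 (92.3%, others 96.7% to 97.4%), 4933404K13Rik (96.1%, others 100%) and AC158605.1 (2.37%, others 0.174% to 0.423%). Wt female 1 stood apart at E330018M18Rik (69.2%, others 40% to 42.8%).

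In Tg mice, Tg female 3 was low at 1700018B24Rik (88.7%, others 95.1% to 100%) and Tg male 2 was low at Gm43915 (80.5%, others 92.3% to 100%). Tg female 4 was high at Gm27200 (43.8%, others 18.5% to 29.3%), and Tg male 1 at Gm30025 (1.48%, others 0.408% to 0.820%). Over all lincRNA sites, Tg female 2 had a mean level of 6.59%, with the other Tg mice at 5.94% to 6.21%.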

How the results depend on the processing

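With at least 20 reads per site, 38 sites and 0 promoters were called in the binomial model, 3 promoters were above 50%, 77.8% of called sites had the same sign on the opposite strand, lincRNA minus antisense was 1.42 points and Tg minus Wt at Gm29464 was 0.0467. With 500 bp either side, lincRNA minus antisense was 0.912 points, or 0.341 without the ribosomal RNA repeat, an alternative chosen after seeing the data, 41 promoters were above 50%, and Gad1os was 0.463. With 2000 bp, 25 of 773 promoters were called and 106 were above 50%. The 7 animals labelled female gave 499 of 18792 sites and 29 of 741 promoters. Shares called over the whole table were not computed under these alternatives. A difference of 25 points left 8 sites and 1 promoter, limma on logit levels 0 and 0, and 5 sites per promoter 4 called promoters and 20 above 50%. Leaving out each animal gave 11 to 28 called promoters (28 without Wt female 1), and -0.821 to 0.0401 points at AC158605.1 (0.0401 without the library labelled Wt male). Alternatives that kept the direction and call of a tested value, stayed within 1.5 times a count or moved an untested value by less than 1 SD numbered 175 for comparisons, 262 for named differences and 747 for named levels. Of the rest, 16 comparisons moved and 3 reversed, 3 named differences reversed, and 7 named levels moved. No named difference was called in the overdispersion model to begin with, so none could lose its call. The 175 include the mean over promoters instead of sites, where lncRNA minus coding promoters was 11.0 points. Among the 175, Tg minus Wt over all lncRNA promoter sites, which was not tested, turned from 0.0704 to -0.171 without the library labelled Wt male and to -0.0941 in the animals labelled female. The causes were not tested. Shallow coverage limits promoters of few sites. No paired analysis was possible because replicate numbers were given in the order of the records and pair no animals.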

Other observations

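Chromosome X held 199 sites near the starts of 8 lincRNA or antisense genes, selected as on the autosomes. Their mean level was 11.7% to 16.2% in the libraries labelled female, 16.3% in the library labelled Wt male and 1.64% to 2.49% in Tg males. Jpx, an lncRNA gene of the X-inactivation centre, differed from that pattern, with 0% to 2.20% over 53 sites in all 12 libraries. Tsix, the antisense partner of Xist, had 7.36% to 19.6% in the libraries labelled female, 13.5% in the library labelled Wt male and 4.28% to 11.3% in Tg males. Gm15046 had 6.46% to 30.6% in the libraries labelled female, 23.7% in the library labelled Wt male and 0% to 1.16% in Tg males.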
